A study of Mus musculus with 10 samples.

Results

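Immediate early response genes are described here in neutrophils from the blood of mice with or without a human kidney tumour. The genes comprise transcription factors of the AP-1, EGR, KLF and NR4A families, dual-specificity phosphatases, regulators of mRNA decay and a few further early stress and signalling genes. They were taken by gene name from the table of neutrophil RNA, where all 37 were found among 54146 genes. RPKM correct the reads of a gene for its length and for the depth of the library. A gene was tested where at least 2 libraries reached 1 RPKM, which 29 of the 37 did, among 8039 genes that passed in all. The 8 that did not pass were Fosb, Maff, Egr2, Egr3, Nr4a2, Nr4a3, Myc and Dusp4.

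Immediate early genes are transcribed within minutes of a stimulus without new protein synthesis, mostly through MAP kinases acting on serum response factor and CREB. Many of their transcripts carry AU-rich elements and are short-lived, and several products, such as the DUSP phosphatases and ZFP36, switch the same response off again. In blood neutrophils these genes are known to respond to adhesion, to inflammatory signals and to the handling of the cells.

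The cells were CD11b+ Ly-6G+ neutrophils sorted from peripheral blood of BALB/c nu/nu mice, which lack a functional thymus and hence most T cells. All animals had received an injection into the kidney, and blood was taken 14 days later. The sham group received vehicle, and the other 4 groups received human clear cell renal cell carcinoma cells, named OSPa, OS5K #1, OS5K #2 and OS5K #3, which belong to OS-RC-2 and its derivatives. Each of the 5 groups had 2 libraries, and the labels give no age and do not say whether these came from separate or pooled mice, so a p-value covers only the spread among these libraries, which may be technical. Reading OSPa as the parental cells and OS5K as lines derived from them is an inference from the names, and nothing in the labels says whether a line is a clone.

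Totals recovered from the steps of the values lay between 13765576 and 15514537 reads per library. All 12 neutrophil markers examined were measured above the filter, with a summed level of 64272 to 85248 RPKM. Summed levels were 205 to 319 RPKM for 15 monocyte markers, 50.1 to 157 for 10 B cell markers and 19.2 to 29.7 for 13 T and NK cell markers, of which 9, Cd3e and Trac among them, stayed under 1 RPKM everywhere. They were 217 to 1593 RPKM for 11 platelet markers and 14.4 to 26.2 for 12 eosinophil and basophil markers. Hemoglobin reads, a sign of red cell RNA, made up 1.59% and 2.19% of the OSPa libraries, 4.14% and 4.80% of the sham libraries and 3.46% to 9.52% of the OS5K libraries. Marker lists of other cells also differed between groups. Of 12 tested monocyte markers 12 were higher in OS5K than in OSPa (median log2 difference 1.11) and 3 were called by limma, namely Ccr2, Ms4a6c and Ms4a4a, while against sham 7 of 12 were higher in OS5K (median 0.58, 0 called, 6 at an unadjusted p under 0.05). Ccr2 was at 0.345 and 0.574 RPKM in OSPa, at 0.599 and 1.52 in sham and at 2.48 to 12.1 in OS5K, whereas the more abundant Csf1r differed by 0.02 ± 0.13 (SE) between OS5K and OSPa (adjusted p = 0.999, limma). All 11 platelet markers were higher in OS5K than in sham (median 1.14, 5 at an unadjusted p under 0.05) and than in OSPa (median 0.66), with 0 called. Of 12 tested erythroid markers 11 were higher in OS5K than in OSPa (median 1.52, 4 called). Among all tested genes 0.348% were called for OS5K against OSPa. At an unadjusted p under 0.05 by limma, 5.49% were higher in OS5K than in sham. Of 9 tested B cell markers 9 were lower in OSPa and 8 in OS5K than in sham (medians -0.36 and -0.37, 0 called). The part of these cells in the differences of the immediate early genes was not tested. Sorted cells were measured in bulk, so fewer cells of a type and less RNA per cell cannot be told apart.

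Many of these genes were among the most abundant transcripts of the neutrophils. Of the 37 members, 14 had a mean of at least 100 RPKM over the 10 libraries and 25 had at least 5, while 9 lay under 1. Junb, a subunit of AP-1, led with a mean of 601 RPKM and ranked 46 of the 8039 genes tested. It was followed by Dusp1, a phosphatase that inactivates p38 and JNK, at 451, by Zfp36 (tristetraprolin), which directs AU-rich mRNAs to decay, at 420.4, and by the antiproliferative gene Btg1 at 382. Klf2, a factor that restrains inflammatory genes in myeloid cells, had a mean of 341 RPKM, Ier2 309 and the AP-1 subunit Jund 304. Btg2, Gadd45a and Ier5 had means of 296, 197 and 192 RPKM. At the other end the nuclear receptors Nr4a2 and Nr4a3 had at most 3 and 5 reads in any library, and the phosphatase gene Dusp4 at most 8. Families were therefore split: Nr4a1 had a mean of 15.5 RPKM beside its nearly silent paralogs, and Junb, Jund and Fos stood far above Jun (7.54 RPKM) and Fosb (0.185 RPKM).

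**Figure D1:**
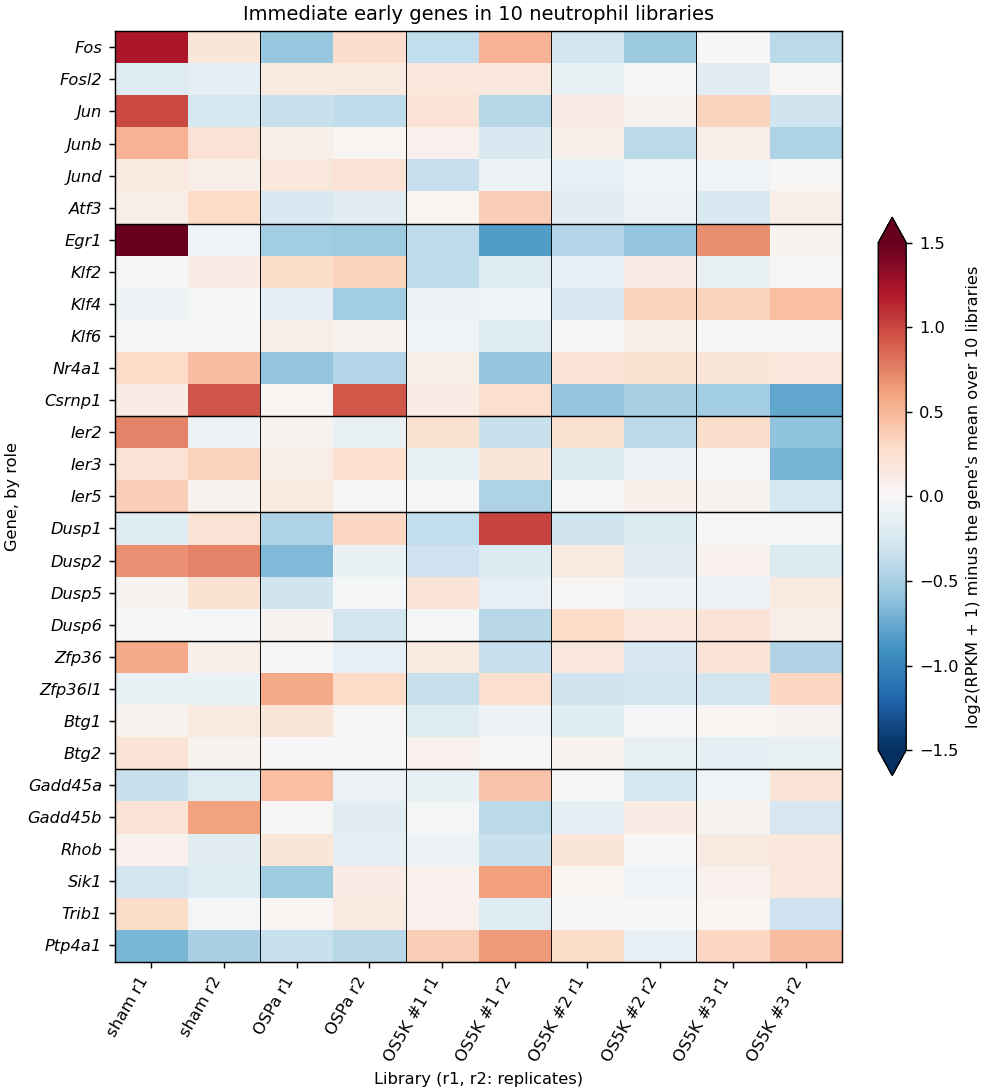
Heat map of the 29 tested immediate early genes (rows) in the 10 libraries (columns), coloured by log2(RPKM + 1) minus the mean of the gene over all libraries, on a scale from -1.5 to 1.5. The sham columns hold the highest value of 15 genes, and Ptp4a1 has its 6 highest values in the OS5K columns.

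The promoters of 5 members that differ in level and in the patterns described below are shown for reference, as 300 bases from 250 before to 50 after the RefSeq start (build GRCm38.p6), read 5′ to 3′ on the strand of the gene. Capitals mark matches to a short list of motifs on either strand. Junb lies at chr8:84978699-84978998 (minus strand), with TATAAA at the RefSeq start itself. The expression data place the first base of Junb at 84978718, downstream of that start, so the position depends on the annotation. Fos lies at chr12:85473640-85473939 (plus strand), with TATAAA beginning 33 bases before the start. Zfp36 lies at chr7:28379179-28379478 (minus strand), with a CArG box, the binding sequence of serum response factor, 58 bases before the start. Dusp1 lies at chr17:26508423-26508722 (minus strand), with the cyclic AMP response element TGACGTCA 143 bases before the start. Ptp4a1 lies at chr1:30949706-30950005 (minus strand), with TATAAA 32 bases before the start.
Junb: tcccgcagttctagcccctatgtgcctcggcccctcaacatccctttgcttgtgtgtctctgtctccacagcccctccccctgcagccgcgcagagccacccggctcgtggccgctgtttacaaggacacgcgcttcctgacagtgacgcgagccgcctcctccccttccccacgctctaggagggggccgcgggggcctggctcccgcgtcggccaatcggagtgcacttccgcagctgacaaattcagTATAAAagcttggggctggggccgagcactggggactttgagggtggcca
Fos: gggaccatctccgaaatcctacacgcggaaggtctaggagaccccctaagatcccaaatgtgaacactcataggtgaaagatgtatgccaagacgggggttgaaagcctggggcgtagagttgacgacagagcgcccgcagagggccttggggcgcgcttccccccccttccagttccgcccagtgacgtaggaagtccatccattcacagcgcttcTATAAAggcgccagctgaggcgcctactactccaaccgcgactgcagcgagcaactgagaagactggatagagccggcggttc
Zfp36: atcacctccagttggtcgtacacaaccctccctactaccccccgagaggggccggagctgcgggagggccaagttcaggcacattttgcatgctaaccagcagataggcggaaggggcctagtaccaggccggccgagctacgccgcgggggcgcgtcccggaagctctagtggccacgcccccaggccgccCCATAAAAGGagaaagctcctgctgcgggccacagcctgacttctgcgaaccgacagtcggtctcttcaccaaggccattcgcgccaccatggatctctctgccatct
Dusp1: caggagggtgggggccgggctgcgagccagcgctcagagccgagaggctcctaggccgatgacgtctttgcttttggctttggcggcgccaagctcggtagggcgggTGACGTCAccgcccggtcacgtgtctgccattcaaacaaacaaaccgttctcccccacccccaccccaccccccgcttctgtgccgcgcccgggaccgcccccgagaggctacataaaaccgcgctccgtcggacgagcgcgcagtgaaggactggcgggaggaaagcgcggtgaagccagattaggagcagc
Ptp4a1: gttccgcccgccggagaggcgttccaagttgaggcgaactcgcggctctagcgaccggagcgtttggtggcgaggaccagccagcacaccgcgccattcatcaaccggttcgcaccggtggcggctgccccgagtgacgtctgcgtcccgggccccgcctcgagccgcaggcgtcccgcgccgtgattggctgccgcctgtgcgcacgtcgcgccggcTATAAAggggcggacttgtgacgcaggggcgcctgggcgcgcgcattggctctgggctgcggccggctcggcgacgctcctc

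Promoter sequences were matched for 30 of the 37 members. Egr1, Egr3, Ier2, Myc, Sik1, Trib1 and Dusp4 were not matched. A CArG box was found in 3 of the 30 (Dusp5, Egr2 and Zfp36), which is 10% of the matched members beside 1.81% of 27025 genes. TGACGTCA was found in 3 (Btg2, Dusp1 and Maff), again 10%, beside 2.03% of genes. The AP-1 letters TGACTCA, or TGAGTCA on the other strand, were found in Csrnp1 alone (3.33% beside 5.95%) and the EGR letters GCGTGGGCG in Maff alone (3.33% beside 0.707%). TATAAA was found in 7 (Btg1, Fos, Gadd45b, Junb, Nr4a2, Ptp4a1 and Zfp36l1), or 23.3% beside 15.7%. Each search covered both strands. A CArG box can contain TATAAA, but no member held both. A match describes the letters of the window and is not a measured binding site.

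The question put to the groups was whether these genes differed between tumour-bearing and sham mice, between OS5K and OSPa, and among the OS5K lines. No member was called at an adjusted p under 0.05 (limma, Benjamini-Hochberg over all 8039 genes) in any comparison. Among all genes the called share was 0% for OSPa against sham, 0% for OS5K against sham, 0.348% for OS5K against OSPa, 0% among the OS5K lines and 0.0124% among the 5 groups. The 0.348% stands for 28 genes, and it came to 1 gene without OSPa replicate 1, 5 without OSPa replicate 2, 15 without either OS5K #2 library, 7 without either OS5K #3 library and 60 without OS5K #1 replicate 2. For OS5K against sham 30 genes, 0 of them members, were called without sham replicate 1. limma-voom on reads recovered from the same values, over the same genes, also called 0 members in all 5 comparisons. Values of members are therefore given below as differences with their errors.

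Members past an unadjusted p under 0.05 by limma were more often lower than higher when set against sham. For OSPa against sham 2 members were higher and 5 lower, where 1.7% and 4.27% of all genes were. For OS5K against sham 1 was higher and 7 lower, beside 5.49% and 4.94% of genes. For OS5K against OSPa 3 were higher and 4 lower, beside 5.97% and 1.92%. Klf4, among the 3 higher, passed the filter through OS5K libraries alone, so its place there is bound up with the choice of genes. Among the OS5K lines 0 of 29 passed that mark beside 6.66% of genes, and among the 5 groups 5 passed beside 8.53%. With voom the counts in these 5 comparisons were 5, 6, 7, 1 and 7. The share of all genes past that mark was not counted with voom, so these counts cannot be set against it. The comparisons share sham or OSPa libraries, so their counts are not independent.

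More members lay below sham than above it, as did more of all genes. The median log2 difference of the 29 members was -0.11 for OSPa against sham, beside -0.04 over all genes, with 10 members higher and 19 lower beside 3319 and 4719 of all genes. It was -0.05 when libraries were centred on their medians, beside 0.01 over all genes. With quantile normalization it was -0.14 beside 0.01, and rescaled to reads outside hemoglobin it was -0.15 beside -0.07. For OS5K against sham it was -0.19 beside -0.02, with 8 higher and 21 lower beside 3655 and 4384 genes. For OS5K against OSPa it was -0.04 beside 0.02, with 11 higher and 18 lower beside 4389 and 3650 genes. Klf4, among the 11, passed the filter through OS5K libraries alone. When values were rescaled to reads outside hemoglobin, the split was 16 higher and 13 lower. The median of the members was then 0.01, beside 0.06 over all genes. A sham library held the highest value of 15 of the 29 members, where it did so in 26.7% of all genes, and an OS5K library held the lowest value of 18, where it did so in 60.6% of genes. Sham libraries held the top value more often among these genes than in the table as a whole, while the share of lowest values in OS5K was close to that of all genes. Neither difference was tested.

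**Figure D2:**
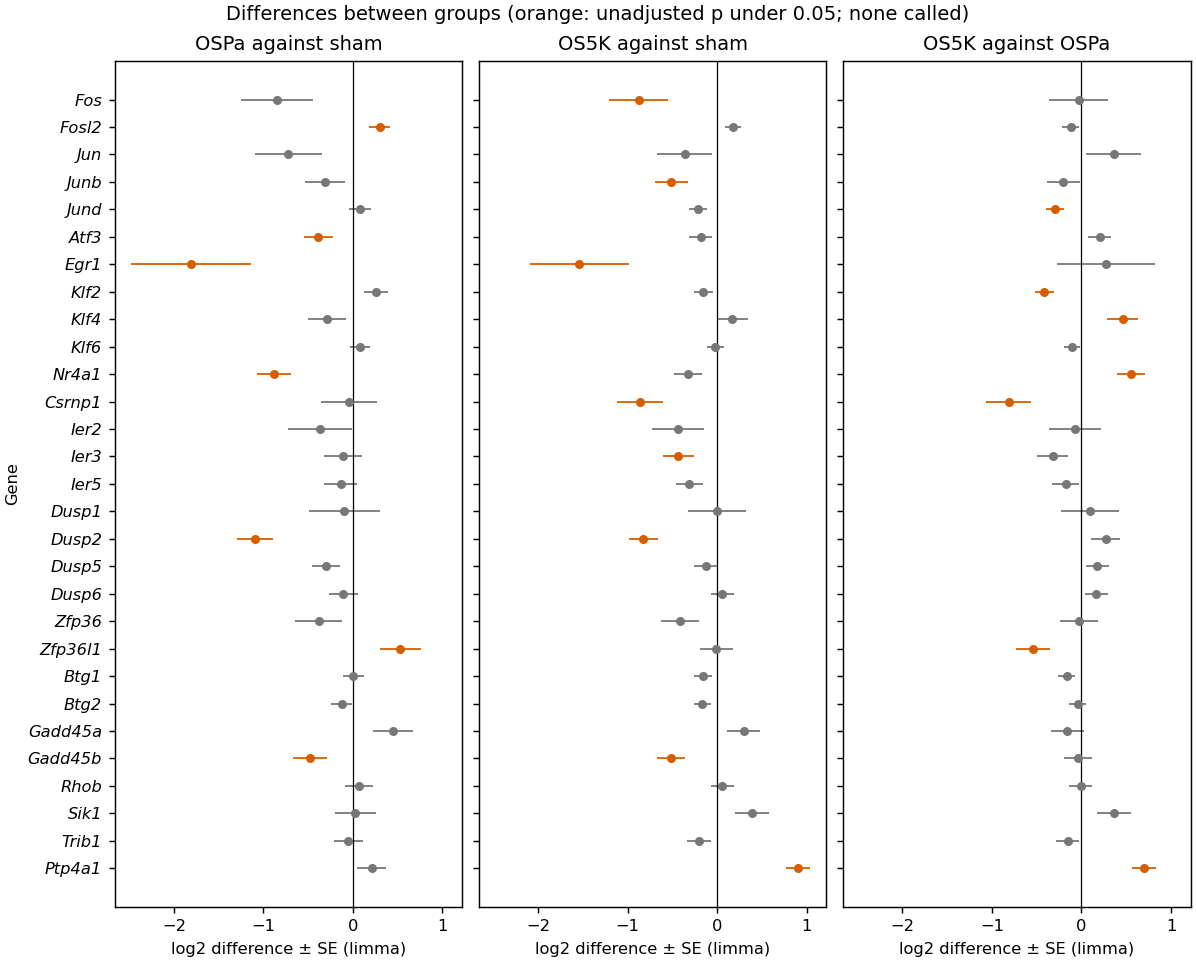
Log2 difference with its SE (limma, on log2(RPKM + 1)) for the 29 tested members in the 3 contrasts between groups, with orange marking an unadjusted p under 0.05. No member was called after adjustment, and 21 of 29 lie below 0 for OS5K against sham.

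AP-1 factors bind DNA as pairs of FOS and JUN proteins or of related leucine zipper proteins. Of the 8 members of this role 6 were tested, and 5 of the 6 were lower in OS5K than in sham (median log2 difference -0.29). In that comparison 4384 of all 8039 genes were lower. Fos stood at 251 and 123 RPKM in the sham libraries, at 72.8 and 130.2 in the OSPa libraries and at 73.2 to 155 in the 6 OS5K libraries, with a median of 85.8. Sham replicate 1 was the highest library, sham replicate 2 lay among the tumour libraries, and the groups overlap. Its difference from sham was -0.88 ± 0.33 (SE) on the log2 scale in OS5K (adjusted p = 0.399, limma) and -0.84 ± 0.40 (SE) in OSPa (adjusted p = 0.8001, limma). The OS5K value was -0.36 without sham replicate 1 and -1.39 without sham replicate 2.

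Junb stood at 847 and 687 RPKM in the sham libraries, at 627 and 604 in the OSPa libraries and at 426 to 631 in the 6 OS5K libraries, with a median of 561. Both sham libraries were above all 8 tumour libraries. The log2 difference of OS5K from sham was -0.51 ± 0.18 (SE) (adjusted p = 0.374, limma). Jund stood at 333 and 321 RPKM in the sham libraries, at 340.3 and 350.0 in the OSPa libraries and at 238 to 306 in the 6 OS5K libraries, with a median of 289. All 6 OS5K libraries were below the sham and OSPa libraries, and the OSPa libraries were above all others. Its OS5K minus OSPa difference was -0.29 ± 0.10 (SE) (adjusted p = 0.405, limma).

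Fosl2, a FOS-related partner, stood at 31.8 and 32.9 RPKM in the sham libraries, at 40.01 and 40.1 in the OSPa libraries and at 32.3 to 41.1 in the 6 OS5K libraries, with a median of 36.4. It was among the members that varied least within groups, and OSPa exceeded sham by 0.30 ± 0.11 (SE) (adjusted p = 0.8001, limma), while the OS5K libraries overlapped both. Atf3, a stress-induced repressor, stood at 9.201 and 10.8 RPKM in the sham libraries, at 7.201 and 7.59 in the OSPa libraries and at 7.25 to 11.5 in the 6 OS5K libraries, with a median of 8.48. Its OSPa libraries were below the sham libraries, and the difference was -0.39 ± 0.16 (SE) (adjusted p = 0.8001, limma). Jun stood at 15.2 and 5.76 RPKM in the sham libraries, at 5.45 and 5.25 in the OSPa libraries and at 5.06 to 9.28 in the 6 OS5K libraries, with a median of 7.67, with sham replicate 1 far above the other libraries and sham replicate 2 within their range. Reads for the untested members were few: Fosb had 38 and 41 reads in sham, 13 and 17 in OSPa and 0 to 23 in the 6 OS5K libraries, and Maff had 17 and 20 reads in sham, 5 and 12 in OSPa and 5 to 11 in the 6 OS5K libraries. For both, each sham library was above every tumour library. In limma-voom on genes with at least 10 reads in 2 libraries, Fosb had an OS5K minus sham difference of -2.56 (adjusted p = 0.129).

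Among the zinc finger factors Egr1, which couples MAP kinase signals to many early targets, rested on 1 library. It stood at 11.6 and 0.934 RPKM in the sham libraries, at 0.416 and 0.402 in the OSPa libraries and at 0.1396 to 2.29 in the 6 OS5K libraries, with a median of 0.524. Sham replicate 1 held 11.6 RPKM and the other 9 libraries at most 2.29, so the sham libraries did not stand apart as a group. The OSPa minus sham difference was -1.81 ± 0.67 (SE) (adjusted p = 0.8001, limma) and the OS5K minus sham difference -1.54 ± 0.55 (SE) (adjusted p = 0.374, limma). Without sham replicate 1 they were -0.46 and -0.18 (adjusted p = 1 and 0.997, limma). Without sham replicate 2 they were -3.17 and -2.89 (adjusted p = 0.0214 and 0.0161, limma), which passed the threshold with sham reduced to its single extreme library and the spread taken from the other groups, so those calls restate the value of that library.

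Egr2 and Egr3 did not pass the filter. Egr2 had 39 and 44 reads in sham, 21 and 23 in OSPa and 5 to 23 in the 6 OS5K libraries, with the sham libraries above all others. In limma-voom on genes with at least 10 reads in 2 libraries, its OS5K minus sham difference was -1.62 (adjusted p = 0.167). Egr3 had 7 and 63 reads in sham, 22 and 19 in OSPa and 3 to 13 in the 6 OS5K libraries, with sham replicate 2 the highest library and sham replicate 1 among the OS5K libraries.

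Nr4a1, an orphan nuclear receptor that dampens inflammation in myeloid cells, stood at 18.5 and 20.98 RPKM in the sham libraries, at 9.72 and 10.8 in the OSPa libraries and at 9.74 to 17.7 in the 6 OS5K libraries, with a median of 17.1. Both sham libraries were above all 8 tumour libraries. The OSPa libraries were at 9.72 and 10.8, near OS5K #1 replicate 2 and below the other 5 OS5K libraries. OSPa differed from sham by -0.88 ± 0.19 (SE) (adjusted p = 0.618, limma), and OS5K from OSPa by 0.56 ± 0.16 (SE) (adjusted p = 0.276, limma). Without OS5K #1 replicate 2, whose Nr4a1 value stood apart, the latter was 0.67 with an adjusted p of 0.0277 by limma. That library is singled out by the value under test, so this call adds no support. Monocyte markers were also higher in OS5K than in OSPa, as given above. Against sham, Nr4a1 was lower in OS5K, by -0.32 ± 0.16 (SE) (adjusted p = 0.510, limma). There 7 of 12 tested monocyte markers were higher, with a median of 0.58. The part of monocytes in Nr4a1 was not tested.

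Klf2 stood at 330.1 and 364 RPKM in the sham libraries, at 407 and 424 in the OSPa libraries and at 259 to 366 in the 6 OS5K libraries, with a median of 311. The OSPa libraries were above all other libraries, and no sham library reached them. OS5K minus OSPa was -0.41 ± 0.11 (SE) (adjusted p = 0.219, limma). Klf2 is also abundant in resting lymphocytes, and the 10 B cell markers summed to 76.3 and 96.4 RPKM in OSPa, 91.4 and 157 in sham and 50.1 to 128 in OS5K. Their part in Klf2 was not tested. Klf4, a related factor of myeloid cells, stood at 0.572 and 0.641 RPKM in the sham libraries, at 0.495 and 0.153 in the OSPa libraries and at 0.408 to 1.26 in the 6 OS5K libraries, with a median of 0.836. It passed the filter through 3 OS5K libraries alone, so its OS5K minus OSPa difference of 0.46 ± 0.17 (SE) (adjusted p = 0.507, limma) is bound up with the choice of genes. It was 0.27 without OSPa replicate 2. Klf6 was nearly constant at 141 to 174 RPKM.

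Csrnp1, a cysteine- and serine-rich nuclear protein, stood at 10.9 and 20.2 RPKM in the sham libraries, at 10.3 and 19.97 in the OSPa libraries and at 5.42 to 11.98 in the 6 OS5K libraries, with a median of 6.83. Its values by line were 10.9 and 11.98 RPKM in OS5K #1, 6.34 and 6.89 in OS5K #2 and 6.77 and 5.42 in OS5K #3. The 4 libraries of OS5K #2 and #3 were below all others, while OS5K #1 overlapped sham and OSPa, whose libraries spread from 10.3 to 20.2. OS5K minus sham was -0.86 ± 0.26 (SE) (adjusted p = 0.298, limma) and OS5K minus OSPa -0.81 ± 0.26 (SE) (adjusted p = 0.351, limma). Without sham replicate 2 the first was -0.45. The second was -1.26 without OSPa replicate 1 and -0.37 without OSPa replicate 2. The test among the lines gave an unadjusted p of 0.0554 and an adjusted p of 0.749 by limma. Myc, a driver of growth genes, had 19 and 13 reads in sham, 12 and 5 in OSPa and 28 to 48 in the 6 OS5K libraries and did not pass the filter. Both OSPa libraries were below and all 6 OS5K libraries above the sham libraries. In limma-voom on genes with at least 10 reads in 2 libraries, the OS5K minus OSPa difference of Myc was 2.09 ± 0.50 (SE) with an adjusted p of 0.155. The monocyte marker Ccr2 was likewise higher in all 6 OS5K libraries, whereas the more abundant Csf1r was not. Of 12 tested monocyte markers 12 were higher in OS5K than in OSPa, and 7 were higher in OS5K than in sham. Myc had its most reads, 48, in OS5K #1 replicate 2, where Ccr2 was at 2.73 RPKM. Ccr2 was highest in OS5K #3 replicate 2, at 12.1 RPKM, where Myc had 28 reads. The part of monocytes in Myc was not tested.

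**Figure D3:**
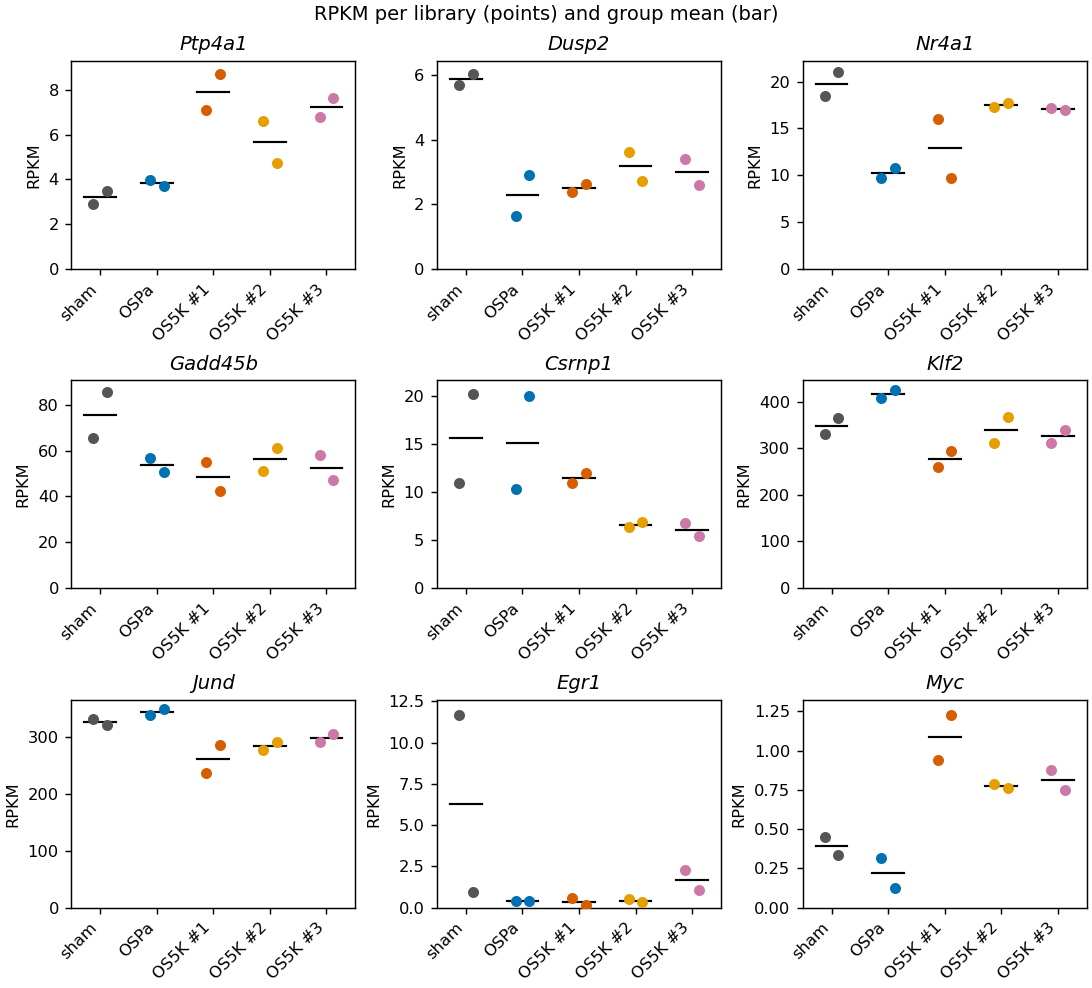
RPKM of 9 members in each library (points) by group, with bars at the group means. Dusp2, Nr4a1 and Gadd45b have both sham points above every tumour point, while Ptp4a1 and Myc have all 6 OS5K points above the sham and OSPa points.

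The IER genes encode short-lived regulators named for their early response. All 3 were lower than sham in OSPa and in OS5K and lower in OS5K than in OSPa, with medians of -0.13, -0.43 and -0.18. Of all 8039 genes, 4719, 4384 and 3650 were lower in these comparisons. The comparisons share libraries, so the signs are not independent. At an unadjusted p under 0.05 by limma were 0, 1 and 0 of the 3. Ier3 stood at 120.2 and 132 RPKM in the sham libraries, at 111 and 122 in the OSPa libraries and at 63.2 to 118 in the 6 OS5K libraries, with a median of 96.8. The OS5K minus sham difference was -0.43 ± 0.18 (SE) (adjusted p = 0.446, limma), and all OS5K libraries were below the lower sham library of 120. Ier2 stood at 499 and 284 RPKM in the sham libraries, at 309 and 277 in the OSPa libraries and at 197 to 358 in the 6 OS5K libraries, with a median of 294, with overlapping groups and a difference of -0.43 ± 0.29 (SE) (adjusted p = 0.635, limma). Ier5 stood at 246 and 197 RPKM in the sham libraries, at 209.5 and 192 in the OSPa libraries and at 137 to 199.6 in the 6 OS5K libraries, with a median of 191. Sham replicate 1 was its highest library, and the groups overlap.

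Dual-specificity phosphatases remove phosphate from MAP kinases. The 4 tested phosphatases of 5 were lower in OSPa than in sham (median -0.21) and higher in OS5K than in OSPa (median 0.17). Of all 8039 genes, 4719 were lower in the first comparison and 4389 higher in the second. Both use the same OSPa libraries, so the 2 signs are not independent. For OS5K against OSPa 0 of the 4 had an unadjusted p under 0.05 by limma. Dusp2, which acts in the nucleus on ERK and p38, stood at 5.704 and 6.03 RPKM in the sham libraries, at 1.65 and 2.897 in the OSPa libraries and at 2.39 to 3.62 in the 6 OS5K libraries, with a median of 2.69. Both sham libraries were above all 8 tumour libraries. Its difference from sham was -1.10 ± 0.20 (SE) in OSPa (adjusted p = 0.558, limma) and -0.83 ± 0.16 (SE) in OS5K (adjusted p = 0.164, limma). With a pseudocount of 5 RPKM, which shrinks low genes, these were -0.58 and -0.46.

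Dusp1 stood at 379.7 and 500.1 RPKM in the sham libraries, at 311 and 534 in the OSPa libraries and at 332 to 870.1 in the 6 OS5K libraries, with a median of 398. The highest value belonged to OS5K #1 replicate 2, and the groups overlap. OS5K minus sham was 0.00 ± 0.32 (SE) (adjusted p = 0.996, limma). Dusp1 is a known target of the glucocorticoid receptor, and the 8 genes of a glucocorticoid response list, with Tsc22d3 among them, summed to 139 and 213 RPKM in sham, 143 and 256 in OSPa and 223 to 314 in OS5K, with the highest sum again in OS5K #1 replicate 2. In OS5K #1 replicate 1 the sum was 287 RPKM, while Dusp1, at 332 RPKM, was at its lowest among the 6 OS5K libraries. All 7 tested genes of the list were higher in OS5K than in sham (median log2 difference 0.18, 0 called). The part of a glucocorticoid response in Dusp1 was not tested. Dusp5 and Dusp6, phosphatases selective for ERK, ranged from 18.7 to 27.4 and from 105 to 171 RPKM.

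Regulators of mRNA decay shorten the lives of early transcripts. All 4 were tested, and all 4 were lower in OS5K than in sham (median -0.16), as were 4384 of all 8039 genes. Of the 4, 1 turned higher when libraries were centred on their medians or rescaled to reads outside hemoglobin. Zfp36 stood at 613 and 435 RPKM in the sham libraries, at 413 and 379 in the OSPa libraries and at 302 to 471 in the 6 OS5K libraries, with a median of 402. Sham replicate 1 was the highest library, and sham replicate 2 lay within the range of the OS5K libraries. OS5K minus sham was -0.41 ± 0.21 (SE) (adjusted p = 0.537, limma). Zfp36l1, its paralog, stood at 13.2 and 13.4 RPKM in the sham libraries, at 21.8 and 17.8 in the OSPa libraries and at 11.1 to 18.1 in the 6 OS5K libraries, with a median of 11.6. OSPa exceeded sham by 0.53 ± 0.23 (SE) (adjusted p = 0.8001, limma), and OS5K minus OSPa was -0.54 ± 0.19 (SE) (adjusted p = 0.427, limma).

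Btg1 and Btg2, which recruit the deadenylase complex, varied little within groups. Btg1 stood at 394 and 419 RPKM in the sham libraries, at 432 and 386 in the OSPa libraries and at 334 to 391 in the 6 OS5K libraries, with a median of 368. Btg2 stood at 339.7 and 305 RPKM in the sham libraries, at 295 and 295 in the OSPa libraries and at 269.9 to 309 in the 6 OS5K libraries, with a median of 283. Their OS5K minus sham differences were -0.16 ± 0.10 (SE) and -0.17 ± 0.10 (SE) (adjusted p = 0.6005 and 0.5696, limma). For Btg1 all 6 OS5K libraries were below both sham libraries and overlapped OSPa, and for Btg2 the groups overlap.

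Ptp4a1, a prenylated tyrosine phosphatase of the PRL family, was the member with the smallest p. It stood at 2.901 and 3.49 RPKM in the sham libraries, at 3.98 and 3.704 in the OSPa libraries and at 4.75 to 8.74 in the 6 OS5K libraries, with a median of 6.95. By line the values were 7.099 and 8.74 RPKM in OS5K #1, 6.601 and 4.75 in OS5K #2 and 6.79 and 7.66 in OS5K #3. All 6 OS5K libraries were above every sham and OSPa library, and both sham libraries were below all 8 tumour libraries. OS5K minus sham was 0.91 ± 0.14 (SE) on the log2(RPKM + 1) scale (adjusted p = 0.148, limma, rank 2 by p among 8039 genes), and OS5K minus OSPa was 0.70 ± 0.14 (SE) (adjusted p = 0.0864, limma). With a pseudocount of 5 RPKM these were 0.54 and 0.43. Monocyte, erythroid and platelet markers were mostly higher in OS5K than in OSPa too, as given above, and their part in Ptp4a1 was not tested. The F test among the 5 groups gave an adjusted p of 0.146, and with voom on genes of at least 10 reads in 2 libraries, an alternative chosen after the data were seen, the adjusted p was 0.0431.

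The Gadd45 genes encode stress sensors that act on MAP kinase pathways. Gadd45b stood at 65.3 and 85.7 RPKM in the sham libraries, at 56.8 and 50.5 in the OSPa libraries and at 42.3 to 61.1 in the 6 OS5K libraries, with a median of 53.1. Both sham libraries were above all tumour libraries. Its difference from sham was -0.48 ± 0.19 (SE) in OSPa (adjusted p = 0.8001, limma) and -0.52 ± 0.15 (SE) in OS5K (adjusted p = 0.304, limma). Without sham replicate 2 these were -0.28 and -0.32. Gadd45a stood at 153 and 168 RPKM in the sham libraries, at 265 and 183 in the OSPa libraries and at 161 to 261 in the 6 OS5K libraries, with a median of 188, with OSPa minus sham at 0.45 ± 0.22 (SE) (adjusted p = 0.8001, limma), so the signs of the paralogs were opposite. Sik1, a kinase restraining CREB coactivators, stood at 3.42 and 3.68 RPKM in the sham libraries, at 2.71 and 4.81 in the OSPa libraries and at 4.23 to 7.25 in the 6 OS5K libraries, with a median of 4.63. Rhob and Trib1, a GTPase and a pseudokinase adaptor, ranged from 25.5 to 36.9 and from 8.999 to 14.1 RPKM, with no p under 0.05.

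Groups that did not overlap were counted for the 29 tested members and for all genes. Both sham libraries were above all 8 tumour libraries for 4 members (Junb, Nr4a1, Dusp2 and Gadd45b), beside 3.28% of genes, and below for Ptp4a1 alone, beside 3.5%. The OSPa libraries were above all others for Jund and Klf2, beside 1.37%, and below all others for 0 tested members, beside 3.11%. All 6 OS5K libraries were above sham and OSPa for Ptp4a1, beside 1.68%, and below for Jund, beside 0.734%. The 4 of 29 with sham on top are a larger share than among all genes, a difference that was not tested.

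Library differences within groups were large for a part of the members. Their median within-group SD was 0.217 on the log2 scale, beside 0.166 over all genes. Fos, Jun, Egr1, Csrnp1, Ier2 and Dusp1 were above the 90th percentile of that spread, and Fosl2, Klf6, Btg1 and Btg2 were below the 10th. The library labelled replicate 1 was above replicate 2 in all 5 groups for 6 of 29 members (Jun, Junb, Egr1, Ier2, Dusp6 and Zfp36), beside 3.62% of genes, and below in all 5 for Atf3 and Klf2, beside 1.12%. For Ier2 the replicate 1 values were 499, 309, 352, 350 and 358 RPKM in sham, OSPa, OS5K #1, #2 and #3, and the replicate 2 values were 284, 277, 237, 228 and 197. The labels do not say what the number stands for.

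**Figure D4:**
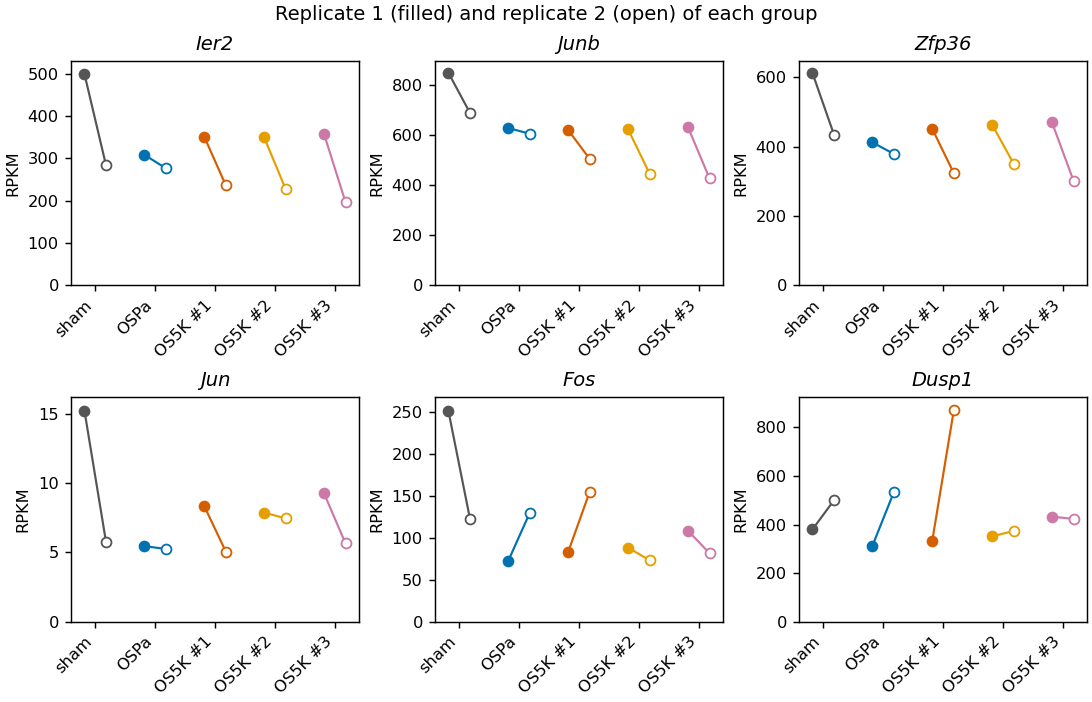
RPKM of Ier2, Junb, Zfp36, Jun, Fos and Dusp1 in the 5 groups, with replicate 1 filled and replicate 2 open. Replicate 1 lies above replicate 2 in every group for Ier2, Junb, Zfp36 and Jun, and not for Fos or Dusp1.

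Further genes of the same pathways gave no call in any comparison by limma. Of 42 MAP kinase cascade and SRF or CREB regulators 34 were tested, and 0 were higher and 1 lower for OS5K against sham at an unadjusted p under 0.05. Of 29 other AP-1, MAF, KLF and EGR family genes 18 were tested, with 1 higher and 4 lower at that mark, and of 24 other DUSP, ZFP36 and BTG or TOB family genes 16 were tested, with 2 higher and 0 lower. Of 35 other early response genes 31 were tested, with 2 higher and 7 lower and a median of -0.10 on the log2 scale. Among all genes 5.49% were higher and 4.94% lower at that mark for OS5K against sham, with a median of -0.02. Differences of these lists from those shares were not tested. In the test among the 5 groups the smallest p-values of these lists belonged to Map2k7, Map3k8 and Mapk9, to Atf6, Klf10 and Klf11, to Dusp16, Dusp7 and Cnot6l, and to Id2, Pim1 and Osm. Pim1, an early response kinase, was -0.74 ± 0.14 (SE) for OS5K against sham (adjusted p = 0.164, limma), and Id2, an inhibitor of helix-loop-helix factors, was 0.85 ± 0.17 (SE) (adjusted p = 0.170, limma).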

How the data were processed

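RNA was measured in 10 libraries, 2 in each of 5 groups, as the sample titles assign them. Per the labels' protocols, SMART-Seq v4 was used for cDNA and Ion Xpress Plus for the libraries. A single table of RPKM was deposited by the authors. The genome build named is mm10, per the submitters' processing notes. Which aligner and counter were used, and whether strand was, is not given in the sources used here. Overlapping genes and close paralogs are therefore uncertain. Depth was worked out from the steps in the values: within 0.02 reads, 84.7% of nonzero values were whole numbers of reads, as were 89.7% of those up to 20 reads. At these totals a read per kb equals 0.0645 to 0.0726 RPKM.

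Genes reaching 1 RPKM in 2 or more libraries were tested as log2(RPKM + 1), which understates differences of low genes, with limma 3.58.1 in R 4.3.3 (trend and robust settings, 5 group means, 5 residual degrees of freedom, Benjamini-Hochberg over all genes tested, called under 0.05). OS5K is the mean of the 3 line means. SE is that of the limma contrast. Scripts were tested on simulated data. Replicates differed by more than counting noise (median chi-square per gene from 2.98 to 4.52).

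The members and lists were chosen with earlier results of these data known. Named with values in each library, or with the range and median over the 6 OS5K libraries, were members with an unadjusted p under 0.05 in any test and the 10 of highest mean. From other lists up to 3 genes of smallest p in the test among the 5 groups were named; the rest named here, among them the low members, were chosen after their values were seen. Alternatives were quantile normalization, median centring, pseudocounts of 0.1 and 5, no filter, a filter at 5 RPKM, limma without trend, fits of only the groups compared, a replicate block, limma-voom on recovered reads and each library left out. Added after the data were seen were voom on genes with at least 10 reads in 2 libraries and RPKM rescaled to reads outside hemoglobin. Promoters came from RefSeq.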

Additional observations from a re-analysis of the deposited data

Results flagged for a closer look

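Among the 6 OS5K libraries, the highest and lowest values of each of the 29 tested members were compared with the nearest other library by Dixon's ratio. OS5K #1 replicate 2 stood apart for 3 of them. Nr4a1 was at 9.74 RPKM there and at no less than 16.0 in the other 5 libraries. Dusp1 was at 870.1 RPKM, with the next library at 433. Sik1 was at 7.25 RPKM, with the next at 5.02. Chance flags about 1 in 20 groups. Over all 8039 tested genes 4.93% were so marked, and OS5K #1 replicate 2 held 28.3% of them. OS5K #3 replicate 2 held 29.3% of them. OS5K #1 replicate 2 held the lowest value of all 10 libraries in 26.7% of genes and the highest in 3.77%. Its standing apart is therefore not limited to these members. Dusp1 and Sik1 had their highest values there, which is the less common direction for that library.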

How the results depend on the processing

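All 22 member differences with an unadjusted p under 0.05 kept their direction in each of the 21 or 22 alternatives that could hold them. These differences were picked by their p in the same data. Several alternatives cannot move a log2 difference: limma without trend, only the groups compared, the replicate block, and a library left out from outside the contrast. The kept direction therefore adds no support. As single libraries were left out, the only members called were Egr1 and Nr4a1, each in a fit with a group reduced to 1 library. Egr1 was at -3.17 in OSPa and -2.89 in OS5K against sham without sham replicate 2, which leaves sham with its 1 extreme library. Nr4a1 was at 0.67 for OS5K against OSPa without OS5K #1 replicate 2, its outlying library. Such calls are not read as results about the members. voom on genes with at least 10 reads in 2 libraries, chosen after the data were seen, called 1 member among the 5 groups. The cause was not tested. Over all genes, the 28 calls for OS5K against OSPa became 15 without a filter, and the 1 among the 5 groups became 14 without a filter, 4 with voom, 18 with the added voom and 13 without sham replicate 1.

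The median log2 difference of the members ranged over left-out libraries from -0.197 to -0.0903 for OSPa against sham, from -0.235 to -0.164 for OS5K against sham and from -0.100 to 0.0117 for OS5K against OSPa. The first was -0.0549 with median centring, beside 0.0129 over all genes. The last was 0.0101 when rescaled outside hemoglobin, chosen after the data were seen, beside 0.0583 over all genes.

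With a replicate block 0 members were called in each comparison. Each group holds both numbers, so a block cannot move a difference, and the medians are the same by construction. Deviations of same-numbered libraries correlated from -0.38 to 0.45 over all tested genes, with 1 of 10 group pairs above 0.1, and from -0.13 to 0.54 over the members, with 8 of 10 above 0.1. Not every pair exceeded 0.1 on either, so the numbers were not taken to pair the libraries in the main fit. Among the 29 members, though, replicate 1 was above replicate 2 in all 5 groups for 6, beside 3.62% of genes. It was below in all 5 for 2, beside 1.12%. A shared effect of the number on the members was not tested.

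With 2 libraries a group, the SE of a log2 difference limits what can be called. Members under 1 RPKM rest on few reads.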
